A study of Homo sapiens with 3 samples.

Results

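The matrix metalloproteinases (MMPs) and their tissue inhibitors (TIMPs) are described here by 9 genes, 6 proteases (MMP1, MMP2, MMP3, MMP9, MMP13 and MMP14) and 3 inhibitors (TIMP1, TIMP2 and TIMP3). They were chosen by name, and all 9 were found among the 48162 genes of each file, which gives Ensembl IDs (ENSG00000196611 for MMP1, ENSG00000157227 for MMP14, ENSG00000102265 for TIMP1, ENSG00000035862 for TIMP2 and ENSG00000100234 for TIMP3). Of these, 5 reached a mean of at least 1 FPKM (reads corrected for transcript length and for the size of the library), as did 12649 named genes in all. RNA was sequenced from MDA-MB-231, a human breast cancer cell line with mesenchymal features that lacks the oestrogen receptor. The 3 libraries, 1 per group, are a FoxO3 depletion, a co-depletion of Geminin and FoxO3, and a control. All 3 cultures were grown in the same serum-containing medium, infected with lentivirus for 24 hours and harvested 72 hours after the medium was changed. Libraries were made from total RNA with a TruSeq kit. Neither the depletion sequences nor the content of the control virus are given in the sources used here, and a number that ends the titles of both depleted libraries is not explained. With 1 library per group, every difference is one between 2 libraries, with no replicate check and no p-value, and each interval covers counting error only. In bulk RNA, fewer cells with a transcript and less of it per cell cannot be told apart.

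MMPs are zinc-dependent proteases that cut the extracellular matrix and proteins at the cell surface. Most are secreted as inactive precursors, while MMP14 is anchored in the plasma membrane and is activated inside the cell by furin. MMP1 and MMP13 are collagenases, MMP2 and MMP9 gelatinases, and MMP3 a stromelysin with a broad range of substrates. TIMPs bind the active site of MMPs tightly and block it, and TIMP2 has a second known role, since it bridges MMP14 and the MMP2 precursor so that a neighbouring MMP14 can activate it. AP-1 factors are known to activate the MMP1 promoter.

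What joins the 6 proteases is the catalytic zinc site, so its coding bases are shown here from the GENCODE 29 transcripts (build GRCh38), 5′ to 3′, with the 3 codons of the zinc-binding histidines in capitals.
MMP1: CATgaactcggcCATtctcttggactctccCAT
MMP14: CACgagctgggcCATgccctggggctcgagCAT
MMP3: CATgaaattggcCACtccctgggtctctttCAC
MMP13: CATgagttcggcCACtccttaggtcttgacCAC
MMP9: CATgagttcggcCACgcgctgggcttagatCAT
MMP2: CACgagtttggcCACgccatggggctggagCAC
Of these 33 bases, MMP3 shares 24 with MMP1, MMP14 23, MMP13 22, MMP9 21 and MMP2 18. The site lies in exon 5 of MMP1 (chr11:102795549-102795581, minus strand) and in exon 5 of MMP14 (chr14:22843283-22843315, plus strand). It lies in exon 5 of MMP3 (chr11:102840535-102840567, minus strand) and of MMP13 (chr11:102952115-102952147, minus strand). In the gelatinases it lies in exon 8, at chr20:46012453-46012485 for MMP9 and chr16:55491827-55491859 for MMP2, both on the plus strand.

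The inhibitors bind that zinc through the amino end of the mature protein, whose first coding bases are shown with the codons of 2 conserved cysteines in capitals.
TIMP1: TGCaccTGTgtcccaccccac
TIMP2: TGCagcTGCtccccggtgcac
TIMP3: TGCacaTGCtcgcccagccac
TIMP2 and TIMP3 each share 13 of these 21 bases with TIMP1. The stretch lies in exon 2 of TIMP1 (chrX:47583485-47583505, plus strand), exon 1 of TIMP2 (chr17:78924990-78925010, minus strand) and exon 1 of TIMP3 (chr22:32802071-32802091, plus strand).

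Whole reads could be recovered from the FPKM values, and the totals behind them were 10760613 reads for the FoxO3 depletion, 12267332 for the co-depletion and 14507410 for the control. FOXO3 stood at 22.8% (FoxO3 depletion) and 24.1% (co-depletion) of control, and GMNN, the gene of Geminin, at 99.9% and 32.9%. Differences moved with the GC content of transcripts. When the analysed genes were cut into 10 bins by GC, the median log2 ratio over control (FPKM + 1 scale) in the poorest bin was -0.71 (FoxO3 depletion) and -0.53 (co-depletion), against 0.03 and 0.09 in the richest bin. With no test to go by, genes past 1.5-fold on that scale were counted, which gave 506 genes higher and 2112 lower in the FoxO3 depletion (80.7% of calls lower, or 59.2% after GC adjustment, with 734 higher and 1065 lower). In the co-depletion it gave 509 higher and 1550 lower (75.3% lower, or 56.0% after GC adjustment, with 566 higher and 719 lower). The mesenchymal marker VIM stood at 574 to 607 FPKM over the 3 libraries, and ESR1, the oestrogen receptor gene, at 0.12 FPKM or less. The epithelial marker KRT18 stood at 202 FPKM in the FoxO3 depletion, 182 in the co-depletion and 118 in the control. It was past 1.5-fold higher in both, with log2 ratios of 0.77 and 0.62 (0.71 and 0.55 after GC adjustment). EPCAM, also epithelial, stood at 9.80, 8.95 and 13.7 FPKM, and CDH1 at 1.02, 0.584 and 0.418.

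MMP14 and the 3 TIMPs were among the most abundant transcripts in all 3 libraries, MMP1 was intermediate, and MMP2, MMP3, MMP9 and MMP13 were close to absent. MMP14, the membrane-anchored collagenase, stood at 547.9 FPKM in the FoxO3 depletion, 584 in the co-depletion and 629.9 in the control, ranks 170, 153 and 112 among 45342 named genes. TIMP1, a secreted inhibitor of most MMPs, stood at 374 FPKM, 424 and 432 in the same order of libraries, at ranks 280, 232 and 204. TIMP3, the inhibitor that stays bound to the matrix, stood at 219.6 FPKM in the FoxO3 depletion, 225 in the co-depletion and 250.4 in the control. All 3 genes were lowest in the FoxO3 depletion and highest in the control, and the 95% counting intervals of the 3 libraries were apart for MMP14. For TIMP1 the co-depletion spanned 411 to 437 FPKM and the control 421 to 444, and for TIMP3 the FoxO3 depletion spanned 215 to 224 and the co-depletion 221 to 229. TIMP2, the inhibitor that also takes part in MMP2 activation, stood at 143 FPKM in the FoxO3 depletion (139 to 147), 151 in the co-depletion (147 to 155) and 195 in the control (191 to 199). MMP1, interstitial collagenase, stood at 14.2 FPKM in the FoxO3 depletion (302 reads), 16.4 in the co-depletion (397 reads) and 32.0 in the control (914 reads). For TIMP2 and MMP1 the control's interval lay above those of both depleted libraries, which overlapped each other.

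**Figure D1:**
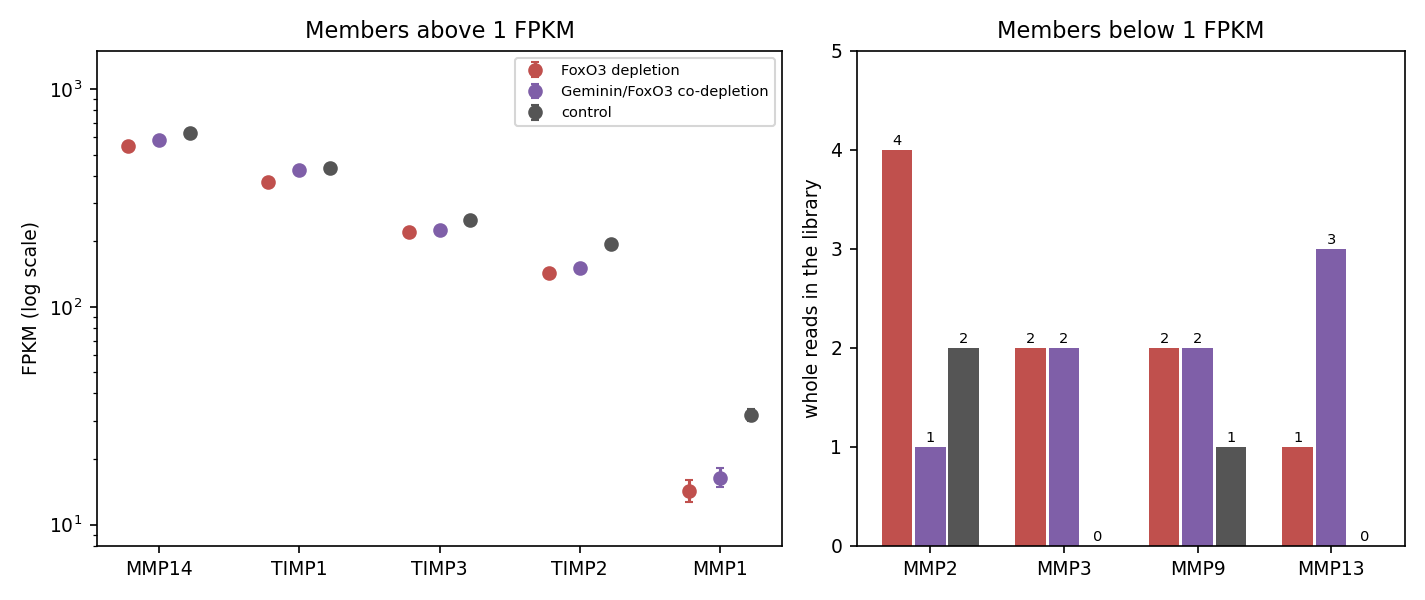
Levels of the 9 genes in the 3 libraries. Left: FPKM on a log axis with 95% counting intervals for the 5 genes above 1 FPKM, from MMP14 (547.9 to 629.9 FPKM) down to MMP1 (14.2 to 32.0 FPKM). Right: whole reads for the other 4 genes, between 0 and 4 in every library.

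Within a library the order by deposited FPKM was MMP14, TIMP1, TIMP3, TIMP2 and MMP1, the same in each of the 3. That order between genes depends on the length each level was divided by. The FPKM of MMP14 implied a length of 1267 bases, the mean over its 6 GENCODE 29 transcripts, while the longest has 3732. Its reads numbered 7470 in the FoxO3 depletion, 9077 in the co-depletion and 11578 in the control. Per kilobase of the longest transcript, an alternative chosen after seeing the data, MMP14 stood at 186 in the FoxO3 depletion, 198.3 in the co-depletion and 213.8 in the control, on the FPKM scale. It then ranked below TIMP1 (282, 320.3 and 327) and TIMP3 (219.6, 225 and 250.4). Ratios of 1 gene between libraries do not contain this length.

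By deposited FPKM, transcripts of the MMP family were dominated by MMP14. The 21 MMP genes measured, the 6 members and 15 others, summed to 576 FPKM in the FoxO3 depletion, 615 in the co-depletion and 674 in the control. MMP14 made up 93.5% of this sum in the control and up to 95.1% in the depleted libraries, while MMP1 made up 2.47% in the FoxO3 depletion, 2.67% in the co-depletion and 4.75% in the control. Of the summed TIMP1, TIMP2 and TIMP3, which came to 736, 799.6 and 877 FPKM, TIMP1 held 50.8% in the FoxO3 depletion, 53.0% in the co-depletion and 49.3% in the control. TIMP2 held 19.4%, 18.8% and 22.2%. The 6 MMP members together stood at 0.764 of the 3 TIMPs in the FoxO3 depletion, 0.751 in the co-depletion and 0.754 in the control. This quotient and the shares above depend on length too. Per kilobase of the longest transcript MMP14 stood at 213.8 in the control, against 629.9 deposited, while MMP1 stayed at 32.0, so the share of MMP14 would be smaller.

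The comparison of the FoxO3 depletion with the control asks how these genes differ when FoxO3, a forkhead transcription factor, is depleted. MMP1 was the 1 gene of 5 past 1.5-fold, and it was lower, at 44.5% of its control FPKM (95% counting interval 39.0% to 50.8%), with a log2 ratio of -1.11. Over all 12649 analysed genes 16.7% were lower at this size, so 1 of 5 is near the background, and 4.0% were higher, against 0 of 5. MMP1 ranked 444 from the lowest of the 12649 ratios, with 3.50% of genes below it. After GC adjustment its log2 ratio was -0.96 and 1.72% were below it. The 3 inhibitors and MMP14 lay within 1.5-fold. TIMP2 stood at 73.5% of control (71.0% to 76.0%), TIMP1 at 86.4% (82.7% to 90.3%), MMP14 at 87.0% (84.5% to 89.6%) and TIMP3 at 87.7% (85.6% to 89.8%). All 5 ratios were below 1, with a median log2 ratio of -0.21, where 57.1% of all analysed genes were below 1 and the median was -0.07. The counting intervals of MMP14, TIMP1 and TIMP3 overlapped each other, and that of TIMP2 lay below them.

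The comparison of the co-depletion with the control asks how cells depleted of both Geminin, the inhibitor of replication licensing, and FoxO3 differ from control cells. MMP1 again was the 1 gene of 5 past 1.5-fold, at 51.4% of control (45.5% to 57.9%), a log2 ratio of -0.92 (GC-adjusted, -0.77). Lower calls at this size made up 12.3% of all analysed genes and higher calls 4.02%, against 1 and 0 of the 5. TIMP2 stood at 77.4% of control (74.9% to 80.0%), TIMP3 at 89.8% (87.7% to 91.9%) and MMP14 at 92.7% (90.2% to 95.3%). TIMP1 stood at 98.1% (94.2% to 102.1%), an interval that includes equality, and its log2 ratio of -0.03 became 0.03 when libraries were rescaled by the median ratio of all genes and -0.13 after GC adjustment. The median log2 ratio of the 5 was -0.15, where that of all analysed genes was -0.06. Since 1 control library serves both comparisons, they are not separate evidence of a direction.

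**Figure D2:**
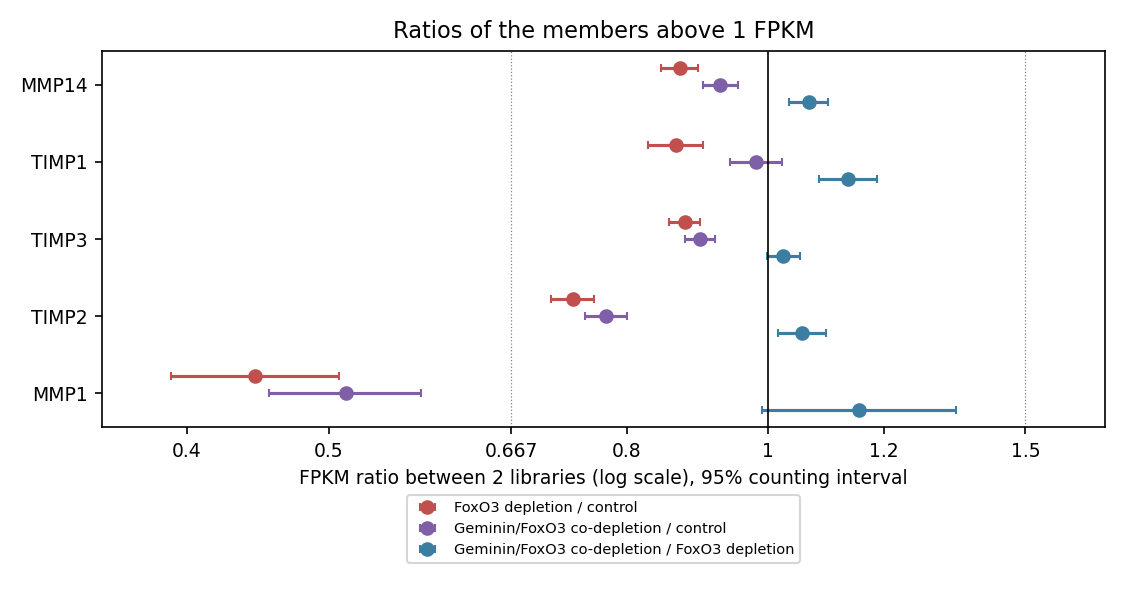
FPKM ratios between libraries for the 5 genes above 1 FPKM, on a log axis, with exact 95% counting intervals. The dotted lines mark 1.5-fold in either direction. MMP1 lies beyond the lower line in both depletions over control (ratios 0.445 and 0.514), TIMP2 lies between that line and 1 (0.735 and 0.774), and all ratios of co-depletion over FoxO3 depletion lie between 1.02 and 1.15.

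A further comparison sets the co-depletion against the FoxO3 depletion, and so asks what differs when Geminin is depleted as well. Of the 5 genes 0 passed 1.5-fold, against 1.35% of all analysed genes higher and 0.617% lower (1.07% and 0.712% after GC adjustment). TIMP1 stood at 424 FPKM in the co-depletion and 374 in the FoxO3 depletion, a ratio of 1.13 (1.08 to 1.19). MMP14 had a ratio of 1.07 (1.03 to 1.10) and TIMP2 of 1.05 (1.02 to 1.09). The intervals of MMP1, with a ratio of 1.15 (0.990 to 1.34), and of TIMP3, with 1.02 (0.998 to 1.05), included 1. All 5 ratios were above 1, as were 56.4% of those of all analysed genes.

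Because MMP14 and TIMP2 act together at the cell surface, their levels were also compared with each other within libraries, where a difference in the quotient between libraries does not depend on scaling or length. The MMP14 FPKM was 3.83 times that of TIMP2 in the FoxO3 depletion and 3.24 times in the control, so that the quotient was 1.18 times the control's (95% conditional interval on reads 1.13 to 1.24). In the co-depletion it was 3.88 times, or 1.2 times the control's (1.15 to 1.25), and the 2 depleted libraries did not differ beyond counting error (1.01, 0.963 to 1.06). Relative to TIMP3, MMP14 did not differ beyond counting error in the FoxO3 depletion (0.992 times the control's quotient, 0.955 to 1.03) or in the co-depletion (1.03, 0.996 to 1.07). Relative to TIMP1 the interval included equality in the FoxO3 depletion (1.01, 0.955 to 1.06) and lay below it in the co-depletion (0.945, 0.900 to 0.993). The quotient of TIMP2 over TIMP1 was 0.382 in the FoxO3 depletion, 0.355 in the co-depletion and 0.450 in the control. MMP1 over TIMP1, protease over inhibitor, was 0.0381 (FoxO3 depletion) and 0.0387 (co-depletion), against 0.0740 in the control. That is 0.515 times (0.448 to 0.592) and 0.524 times (0.461 to 0.594) the control's quotient. These quotients are not adjusted for GC content. In the FoxO3 depletion the log2 ratios of MMP1 and TIMP1 were -1.11 and -0.21, but -0.96 and -0.28 after GC adjustment. In the co-depletion they were -0.92 and -0.03, but -0.77 and -0.13. The 2 genes thus lay closer together after adjustment.

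The remaining 4 proteases were at the limit of detection. MMP2, gelatinase A, had 4 reads in the FoxO3 depletion (0.214 FPKM), 1 in the co-depletion (0.0468) and 2 in the control (0.0792). The ratio over control in the FoxO3 depletion was 2.70 with an interval of 0.386 to 29.8, so no difference was detectable at this depth. MMP9, gelatinase B, had 2 reads in the FoxO3 depletion, 2 in the co-depletion and 1 in the control. MMP3 had 2, 2 and 0 reads, and in the control the floor of 3 reads used for a count of 0 equals 0.216 FPKM, with an exact two-sided 95% upper limit of 0.266. MMP13 had 1, 3 and 0 reads, with a floor of 0.0988 FPKM and an upper limit of 0.121 in the control. No fold is given for these 3, because both libraries of each pair held 3 reads or fewer. MMP14, which can activate the MMP2 precursor, stood at 547.9 FPKM or more in libraries where MMP2 stood at 0.214 or less.

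MMP1, MMP3 and MMP13 lie in a cluster of MMP genes on chromosome 11. Between MMP7 and MMP13 (GRCh38, positions 102520508 to 102955734) 8 MMP genes were measured, and MMP1 alone reached 1 FPKM. The other 7 had at most 3 reads in any library, and MMP7, MMP20 and MMP27 were listed at 0 in all 3. Outside the MMP genes, 7 genes within 1 Mb of MMP1 reached 1 FPKM, and they did not share 1 direction. TMEM123, a membrane mucin-like protein, was lower, at 142.6 FPKM in the FoxO3 depletion, 175.9 in the co-depletion and 377.9 in the control. DYNC2H1, a motor of cilia, stood at 1.36, 2.49 and 5.44 FPKM and was also past 1.5-fold lower in both. BIRC3, an inhibitor of apoptosis induced by NF-kB, was higher, at 42.8 and 53.3 FPKM against 23.4 in the control. BIRC2 stood at 59.9 FPKM in the FoxO3 depletion, 73.1 in the co-depletion and 100.9 in the control. The log2 ratio of TMEM123 over control in the FoxO3 depletion was -1.40, or -0.89 after GC adjustment, and that of DYNC2H1 -1.45, or -0.74. In the co-depletion that of TMEM123 was -1.10, or -0.72, and that of DYNC2H1 -0.88, or -0.35 and inside 1.5-fold. In the FoxO3 depletion BIRC2 went from -0.74 to -0.17 after GC adjustment and CEP126 from -0.59 to 0.07, both then inside 1.5-fold. BIRC3 went from 0.84 to 1.61 in the FoxO3 depletion and from 1.15 to 1.72 in the co-depletion.

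**Figure D3:**
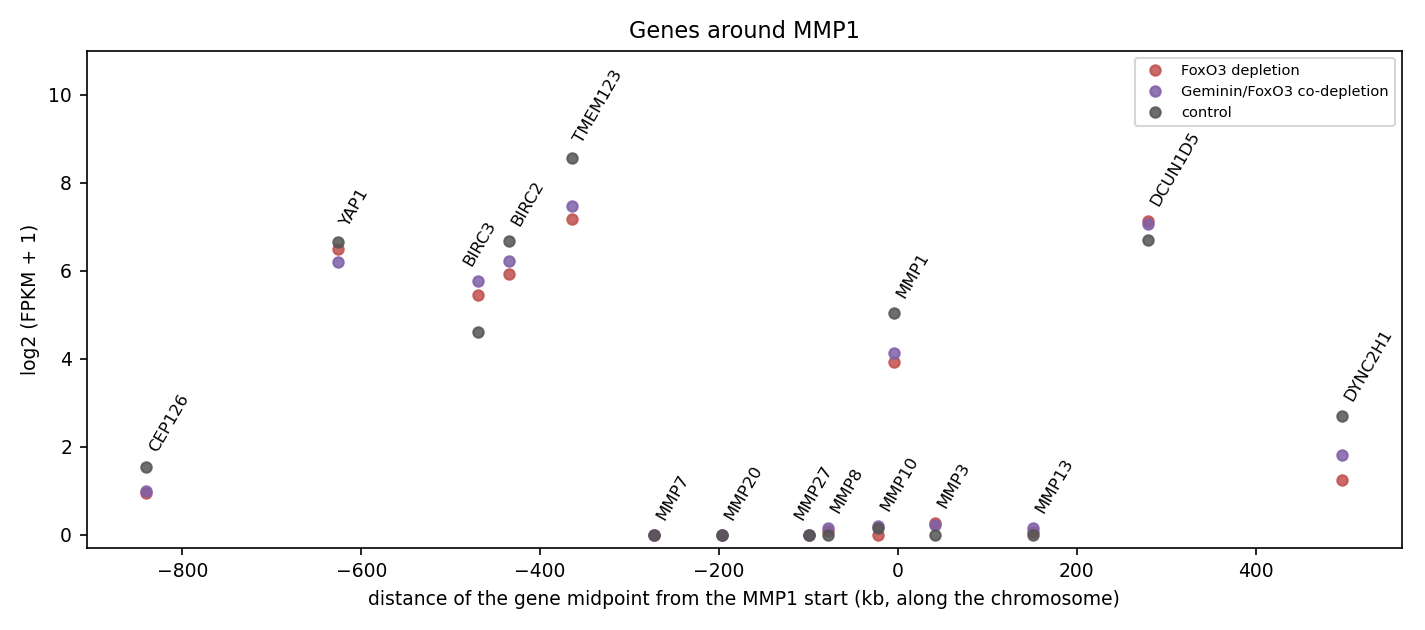
Levels of the MMP genes, and of other genes with at least 1 FPKM, within 1 Mb of MMP1. The x axis is the distance of each gene's midpoint from the MMP1 start in kb and the y axis log2 (FPKM + 1). Points of MMP1 and TMEM123 are higher in the control than in both depleted libraries, those of BIRC3 lower in the control, and the other 7 MMP genes lie at or near 0.

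Overlapping genes add an uncertainty, since the sources used here do not say whether counting used strand. TIMP1 overlaps SYN1 and TIMP3 overlaps SYN3, on opposite strands, and SYN1 and SYN3 stood at 0.155 FPKM or less. WTAPP1, a pseudogene on the strand opposite MMP1 and MMP3, stood at 0.0989 FPKM in the FoxO3 depletion and 0 in the other libraries. CEP295NL overlaps TIMP2 on the same strand and stood at 0.377 FPKM in the FoxO3 depletion, 0.826 in the co-depletion and 1.54 in the control.

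GC content differed among the members and was set beside their ratios. MMP1 was the poorest of the 5 in GC, at 43.4%, where the median of the analysed genes was 48.95%. TIMP3 had 48.7%, TIMP2 52.3%, TIMP1 58.0% and MMP14 58.8%. The median log2 ratio over control at MMP1's GC content was -0.15 in both depletions, and between 0.04 and 0.07 for the other 4 in the FoxO3 depletion. After GC adjustment the log2 ratios in the FoxO3 depletion were -0.96 for MMP1, -0.48 for TIMP2, -0.28 for TIMP1, -0.25 for MMP14 and -0.24 for TIMP3. MMP1 thus stayed past 1.5-fold in both depletions, where 8.42% of analysed genes were lower and 5.80% higher (FoxO3 depletion), and 5.68% lower and 4.47% higher (co-depletion), after the same adjustment. TIMP2 had 12.2% (FoxO3 depletion) and 12.5% (co-depletion) of analysed genes below it, against 23.3% and 23.5% unadjusted.

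**Figure D4:**
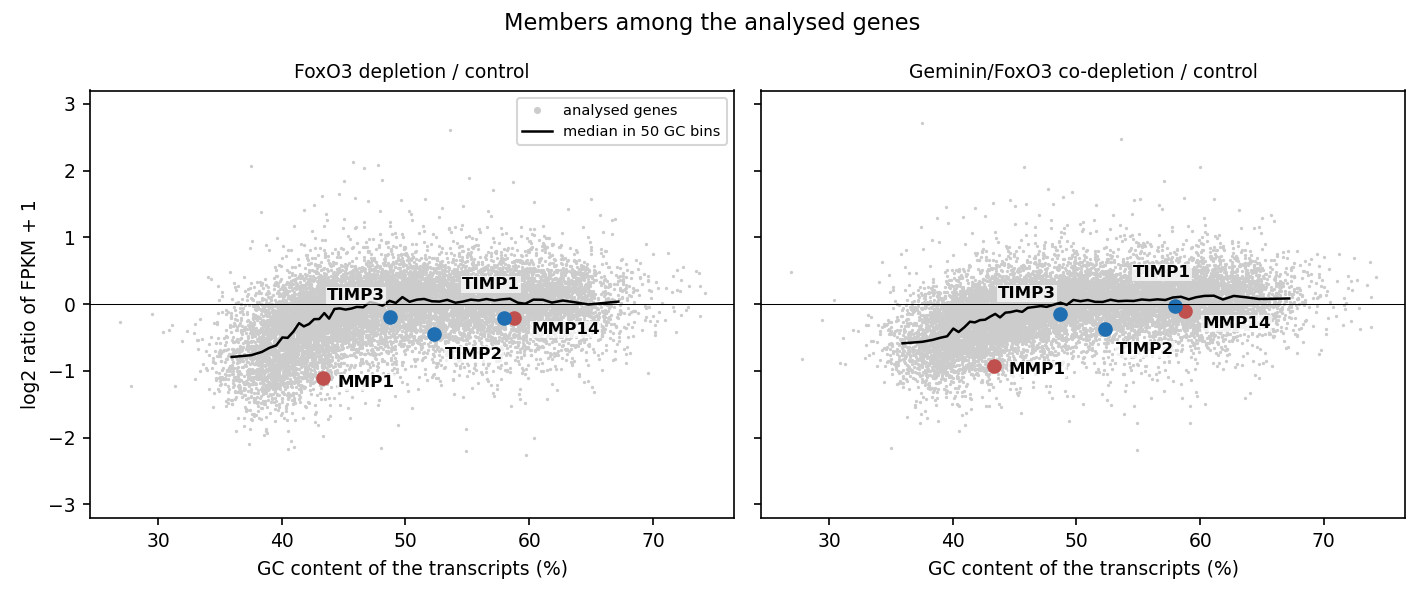
Log2 ratio of FPKM + 1 over control against GC content of the transcripts, for the analysed genes (grey), their median in 50 bins of GC content (line) and the 5 named genes (MMPs red, TIMPs blue). MMP1 lies below the line at 43.4% GC in both panels, TIMP2 lies below it, and MMP14, TIMP1 and TIMP3 lie closer to it.

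Over the 3 libraries many genes had a pattern like that of MMP1. By distance between pairs of log2 ratios over control, the nearest of 9824 genes with a mean of at least 5 FPKM were CKAP2L, a mitotic spindle protein, TNPO1, a nuclear import receptor, and MKLN1. CKAP2L stood at 11.5 FPKM in the FoxO3 depletion, 13.2 in the co-depletion and 25.9 in the control, and TNPO1 at 80.4, 91.4 and 175. MKLN1 ranged between 19.4 FPKM in the FoxO3 depletion and 43.0 in the control. In all 77 genes lay within a distance of 0.1 of MMP1, and 3 libraries do not separate such genes.

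Beyond the 9 members, 6 of 15 other MMP genes measured reached a mean of 1 FPKM, all of them low. MMP16, a membrane-anchored MMP, was lower, at 0.601 FPKM in the FoxO3 depletion (23 reads), 0.710 in the co-depletion (31 reads) and 2.23 in the control (115 reads). Its log2 ratio of -1.01 in the FoxO3 depletion was -0.28 after GC adjustment. MMP15, another membrane-anchored MMP, stood at 5.90 FPKM, 6.91 and 4.02, a ratio over control of 1.47 in the FoxO3 depletion (1.15 to 1.87), and in the co-depletion of 1.72 (1.37 to 2.16). It passed 1.5-fold on the FPKM + 1 scale in the co-depletion, its log2 ratio being 0.66, but 0.58 and just inside the limit after GC adjustment. MMP24 stood at 2.02 FPKM in the FoxO3 depletion, 1.72 in the co-depletion and 1.14 in the control, MMP17 at 1.66, 0.844 and 0.909, MMP19 at 1.58, 1.57 and 1.84, and MMP11 at 1.35, 1.33 and 1.12. These 4 lay within 1.5-fold of control on the FPKM + 1 scale. With a pseudocount of 0.1 or 0.5 in place of 1, MMP24 and MMP17 were past it and higher in the FoxO3 depletion, where the FPKM ratio was 1.77 for MMP24 (1.29 to 2.44) and 1.83 for MMP17 (0.870 to 3.94).

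Other genes that act on MMPs showed no common direction. Of 11 measured inhibitors and regulators, 3 were lower and 1 higher in the FoxO3 depletion (median log2 ratio -0.11), and 2 lower and 1 higher in the co-depletion (0.01). Among all analysed genes 16.7% (FoxO3 depletion) and 12.3% (co-depletion) were lower, and about 4.0% were higher in each. TIMP4, the fourth inhibitor of the family, stood at 1.52 FPKM in the FoxO3 depletion (27 reads), 2.12 in the co-depletion (43 reads) and 3.76 in the control (90 reads), which is lower in both by size. The secreted serine protease inhibitor TFPI2 was higher, at 71.3 and 68.3 FPKM against 43.5. PCOLCE, an enhancer of collagen processing, stood at 3.09 FPKM in the FoxO3 depletion, 5.75 in the co-depletion and 6.70 in the control, and the matrix proteoglycan SPOCK1 at 0.722, 0.951 and 2.41. CD44, a hyaluronan receptor that docks MMPs at the cell surface, was the most abundant of the list, at 935 and 904 FPKM against 631, within 1.5-fold. FURIN, the convertase that activates MMP14, stood at 91.6 FPKM in the FoxO3 depletion, 92.1 in the co-depletion and 70.2 in the control, within 1.5-fold.

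Other protease families differed in their medians. The 7 measured genes of the plasminogen activator system had a median log2 ratio of 0.35 in the FoxO3 depletion, against 0.34 in the co-depletion, and 0 of them were lower in either. PLAUR, the urokinase receptor, stood at 194 and 188 FPKM in the depleted libraries against 125 in the control. PLAUR had a log2 ratio of 0.63 in the FoxO3 depletion, and of 0.57, inside the limit, once adjusted for GC. ANXA2, a plasminogen-binding annexin and the most abundant of the list, stood at 2438 and 2417 FPKM against 1908. Some ADAM proteins shed others from the cell surface. Of 8 ADAM genes 0 were higher in either depletion, while 4 were lower in the FoxO3 depletion, against 3 in the co-depletion (medians -0.44 and -0.31). Over all analysed genes 16.7% and 12.3% were lower, and about 4.0% higher in each. After GC adjustment 2 and 1 were lower, ADAM15 and ADAM22 in the FoxO3 depletion and ADAM22 in the co-depletion. The sheddase ADAM10 stood at 104 FPKM in the FoxO3 depletion, 125 in the co-depletion and 193 in the control. Its log2 ratio in the FoxO3 depletion, -0.89, was -0.38 once adjusted for GC. ADAM9 stood at 76.3 FPKM, 101.3 and 157, ADAM15 at 79.4, 87.7 and 120.5, and ADAM22 at 0.88, 1.17 and 2.90. Of 8 ADAMTS genes 0 were lower in either depletion, while 1 was higher in the FoxO3 depletion, against 2 in the co-depletion (medians 0.26 and 0.28). After GC adjustment 2 and 3 were higher, with ADAMTS1 added in both. ADAMTS1 stood at 19.5 and 19.1 FPKM in the depleted libraries against 12.8 in the control. ADAMTS15, which cuts proteoglycans, stood at 53.8 and 57.1 FPKM against 33.8. ADAMTS9 stood at 6.79 and 8.84 FPKM against 4.79. Of 12 cathepsins 1 was lower in the FoxO3 depletion, CTSF at 32.5 FPKM against 51.8, and 0 passed the size in the co-depletion (medians -0.16 and -0.03). CTSD, the most abundant cathepsin by the mean of the 3 libraries though below CTSZ in the FoxO3 depletion, stood at 355 FPKM in the FoxO3 depletion, 418 in the co-depletion and 412 in the control.

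Among factors known to act on the MMP1 gene some were higher and some lower, and among cytokines known to induce it those past 1.5-fold with a mean of at least 1 FPKM were higher. The AP-1 and ETS list also held RUNX2, at 21.2 FPKM in both depleted libraries and 21.5 in the control. Of its 13 measured genes 1 was higher and 1 lower in each depletion (medians 0.10 and 0.15). Among all analysed genes about 4.0% were higher in each depletion, and 16.7% (FoxO3 depletion) and 12.3% (co-depletion) were lower. JUNB stood at 26.3 and 28.8 FPKM against 13.3 in the control, and ETV1 at 20.3 and 19.4 against 52.8. The log2 ratio of ETV1 in the FoxO3 depletion, -1.34, was -0.84 once adjusted for GC. FOSL1, the most abundant AP-1 subunit of the list, stood at 191 FPKM in the FoxO3 depletion, 198.5 in the co-depletion and 274 in the control, within 1.5-fold. After GC adjustment 2 genes of the list were lower in the co-depletion, ETV1 and ETV5. The log2 ratio of ETV5 there went from -0.57 to -0.61, and that of FOSL1 from -0.46 to -0.58, just inside the limit. Of 7 cytokines and growth factors known to induce MMP1, 3 were higher and 0 lower in each depletion (medians 0.42 and 0.52). IL6 stood at 27.3 and 25.8 FPKM against 5.46, the EGF receptor ligand HBEGF at 164 and 154 against 72.0, and LIF at 39.8 and 43.1 against 26.2. The log2 ratio of LIF in the FoxO3 depletion, 0.59, lay at the limit and was 0.52 once adjusted for GC. AREG, of the same list, went from 0.42 to 0.74 in the FoxO3 depletion, past the limit. After GC adjustment 3 genes of the list were thus still higher in each depletion. IL1B, below 1 FPKM on average, had 0 reads in the FoxO3 depletion, 1 in the co-depletion and 9 in the control, and with no minimum on FPKM it was counted as lower in both.

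Among 12 measured matrix substrates 3 were higher and 2 lower in each depletion (medians 0.06 and 0.11). COL4A1, a basement membrane collagen, stood at 40.1 and 39.3 FPKM against 16.1 and COL5A1 at 234 and 259 against 132. COL1A1, the fibrillar collagen that MMP1 and MMP14 cut, stood at 25.3 and 24.3 FPKM against 13.4. The glycoprotein TNC was lower, at 16.5 and 19.0 FPKM against 33.9, as was LAMA3, a laminin chain, at 14.7 and 16.6 against 28.2. LAMB3, the most abundant of these by the mean of the 3 libraries, stood at 265 and 286 FPKM against 321, while LAMC1 stood above it in both depletions, at 299.5 and 297.9 FPKM. Of 9 genes of invadopodia, the protrusions where MMP14 gathers, 1 was lower in each depletion, the scaffold SH3PXD2A (also called TKS5), at 21.4 and 21.0 FPKM against 40.1. ACTR2, a subunit of the actin-branching Arp2/3 complex, stood at 177 and 195 FPKM against 259, within 1.5-fold. Its log2 ratios of -0.54 (FoxO3 depletion) and -0.41 (co-depletion) were -0.04 and 0.01 once adjusted for GC. Of the 95 measured genes of the 11 related lists, 11 were higher (11.6%, against 4.0% of all analysed genes) and 13 lower (13.7%, against 16.7%) in the FoxO3 depletion. In the co-depletion 12 were higher (12.6%, against 4.02%) and 10 lower (10.53%, against 12.3%). Between the co-depletion and the FoxO3 depletion 1 was higher and 0 lower. The lists were chosen with earlier results known, so these shares are a description.

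**Figure D5:**
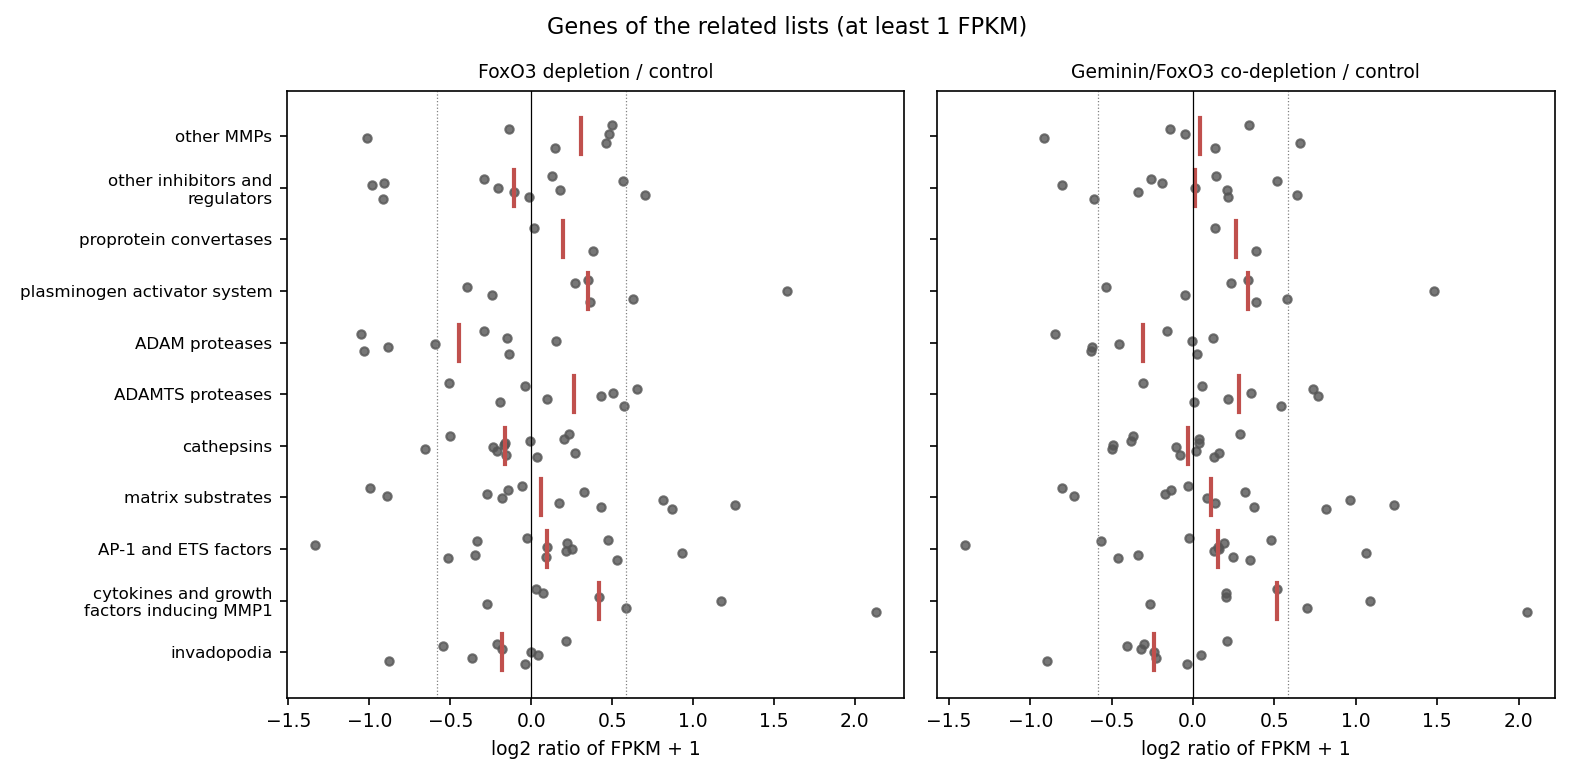
Log2 ratios of FPKM + 1 over control for the genes of the 11 related lists with a mean of at least 1 FPKM. Each point is a gene, the red bar the list's median, and the dotted lines 1.5-fold. The rightmost point is IL6 in both panels and the leftmost ETV1.

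Markers of other cell types were measured because fibroblasts and leukocytes are known sources of MMPs in tumours. Of 8 leukocyte markers 1 reached 1 FPKM, CD14 at 8.09 FPKM in the FoxO3 depletion, 8.59 in the co-depletion and 6.76 in the control, and CD3E, CD68, ELANE and MPO were listed at 0 in all 3 libraries. The 8 summed to 8.16, 8.90 and 7.05 FPKM. Of 6 fibroblast markers 3 reached 1 FPKM, and 2, COL1A1 and PDGFRB, were higher in both depletions. Among all analysed genes about 4.0% were higher in each. PDGFRB stood at 15.0 FPKM in the FoxO3 depletion, 14.4 in the co-depletion and 6.24 in the control. COL1A2 stood at 14.2 FPKM in the FoxO3 depletion, 13.6 in the co-depletion and 10.3 in the control, within 1.5-fold. The 6 summed to 54.7 FPKM in the FoxO3 depletion, 52.7 in the co-depletion and 30.3 in the control. COL3A1, DCN and LUM stood at 0.36 FPKM or less. Of 3 measured endothelial markers KDR reached 1 FPKM, at 6.97, 5.75 and 5.44, and the 3 summed to 7.13, 5.83 and 5.70 FPKM. The part of these genes in the MMP and TIMP levels was not tested.

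Promoter sequence (RefSeq, GRCh38.p14, 250 bases before to 50 after the start) was matched for 3 of the 9 members, MMP14, TIMP1 and TIMP3. The promoters of MMP14 and TIMP1, the 2 members with the highest deposited FPKM, are shown with matches to the GC box GGGCGG, on either strand, in capitals.
MMP14, chr14:22836335-22836634, plus strand: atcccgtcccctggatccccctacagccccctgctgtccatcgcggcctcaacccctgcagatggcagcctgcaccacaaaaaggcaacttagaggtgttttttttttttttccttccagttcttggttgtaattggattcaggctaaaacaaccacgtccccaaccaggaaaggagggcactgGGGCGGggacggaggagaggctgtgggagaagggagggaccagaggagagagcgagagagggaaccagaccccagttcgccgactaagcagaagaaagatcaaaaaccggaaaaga
TIMP1, chrX:47582186-47582485, plus strand: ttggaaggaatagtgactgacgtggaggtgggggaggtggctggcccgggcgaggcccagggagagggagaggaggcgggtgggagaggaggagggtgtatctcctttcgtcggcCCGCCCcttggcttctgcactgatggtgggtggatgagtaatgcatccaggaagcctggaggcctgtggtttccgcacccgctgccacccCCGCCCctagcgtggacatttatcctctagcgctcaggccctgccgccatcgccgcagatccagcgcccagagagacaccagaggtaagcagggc
The GC box occurred 1 time for MMP14, 2 times for TIMP1 and 5 times for TIMP3, and 44.6% of 27305 promoters in the table held it at least 1 time. The AP-1 consensus TGANTCA, searched on both strands, occurred in 7.76% of promoters and in 0 of these 3 windows. A match describes letters, not a bound site, and the absence of one says only that these letters are not in the window.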

How the data were processed

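The authors deposited 1 table per library with FPKM values per Ensembl gene, and TopHat2 2.0.9 was used per the submitters' processing notes. What counted the reads, the build, the annotation and the strand setting were not found in the labels or files, so each is not given here. GENCODE 29 gave names for 45342 of the 48162 gene IDs, and gene positions, transcript lengths and GC content. MMP12, MMP28 and PECAM1 are not analysed here, and some genes of the lists are not reported here.

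A gene's FPKM in 3 libraries are whole reads times steps in 1 fixed ratio, and the commonest product of FPKM and length over single-transcript genes gave each library's total. Whole reads (searched up to 60000) were found for 20587 of 20591 genes present in 2 or more libraries, but for 0.4% of 2000 shuffled triples. Reads were then raised to the smallest multiple that gave a whole-base length, found for 99.8%, and the sums made up 92.0% to 92.2% of the totals. A gene's true reads may be a multiple of these, which would make its interval narrower.

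Ratios are log2 (FPKM + 1), which understates differences of low genes, over the 12649 named genes with a mean of at least 1 FPKM. Intervals are exact Clopper-Pearson for a gene's ratio, conditional on reads for quotients and exact Poisson for levels, at 95%. For GC adjustment the median ratio in 50 bins of GC content was subtracted. Read recovery and the size rule were tested on simulated data.

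The members, the 11 related lists and the marker lists were chosen with earlier results of these data known. All 9 members are named, and of each list the most abundant gene and up to 6 with the largest ratios past 1.5-fold in any comparison, every other MMP at 1 FPKM, and the 3 genes nearest in pattern to a member past 1.5-fold. Genes outside these rules (BIRC2, BIRC3, TMEM123 and DYNC2H1 near MMP1, MMP genes at 0, markers at 0, DCN, LUM, VIM, ESR1 and overlapping genes) were chosen for their position or as checks. LAMC1, CTSZ, IL1B, AREG, ETV5, CEP126, EPCAM, CDH1, COL1A2, COL3A1, ADAMTS1 and RUNX2 were added after their values were seen. Python 3.11.15, numpy 2.4.6, pandas 2.3.3, scipy 1.17.1 and matplotlib 3.10.9 were used. With 1 library per group no p-value was computed. Alternatives were a pseudocount of 0.1 or 0.5, a minimum mean of 5 FPKM or none, scaling to the median ratio or to TPM, GC adjustment, protein-coding genes alone and a 2-fold size rule.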

Additional observations from a re-analysis of the deposited data

How the results depend on the processing

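MMP1 stayed past 1.5-fold lower than the control in both depletions, and 0 other members were called, under every alternative tried at that size (both pseudocounts, both minimums, both rescalings, GC adjustment and protein-coding genes alone). MMP2, MMP3, MMP9 and MMP13 could be called only with no minimum on FPKM, where the pseudocount of 1 shrank their ratios. At a pseudocount of 0.1 the log2 ratio of MMP3 was 1.56 (FoxO3 depletion) and 1.43 (co-depletion), on 2 reads against 0. At 2-fold MMP1 was called in the FoxO3 depletion, while in the co-depletion 0 members were. Per kilobase of the longest transcript, chosen after seeing the data, MMP14 stood at 0.659 of TIMP1 in the FoxO3 depletion, 0.619 in the co-depletion and 0.655 in the control, against 1.47, 1.38 and 1.46 in the deposited values. It stood at 0.847, 0.882 and 0.854 of TIMP3, against 2.5, 2.60 and 2.52. The lengths alone make this difference.

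With GC adjustment 1065 genes were lower in the FoxO3 depletion, against 2112 without, and 719 in the co-depletion, against 1550. At 2-fold the FoxO3 depletion had 661 genes lower and 85 higher, with 4 and 4 in the related lists, and the co-depletion 285 and 79, with 1 and 5. With a minimum of 5 FPKM, which tests fewer genes, 6 genes of the related lists were lower in the co-depletion, against 10. Between the co-depletion and the FoxO3 depletion 171 genes were higher and 78 lower. These became 451 and 207 at a pseudocount of 0.1, 312 and 130 at 0.5, 45 and 14 at 5 FPKM, 384 and 232 with no minimum, 89 and 24 for protein-coding genes and 16 and 8 at 2-fold. In the related lists 1 was higher and 0 lower, which became 2 and 2 at a pseudocount of 0.1, 2 and 1 at 0.5, 1 and 1 after GC adjustment and 0 and 0 at 2-fold. The cause of these shifts was not tested. No paired analysis was possible because each group holds 1 library. Depth limits MMP2, MMP3, MMP9 and MMP13, at 0 to 4 reads.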
